A study of Mus musculus with 12 samples.

Results

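The genes described here are the secreted and membrane-bound matrix metalloproteinases (MMPs), the ADAMTS proteases and ADAMTS-like proteins, and the tissue inhibitors of metalloproteinases (TIMPs), in mouse left ventricle. They were taken by symbol (Mmp, Timp, Adamts or Adamtsl followed by a number), whatever their values, which gave 51 of the 55401 genes in the count table: 23 MMPs, 4 TIMPs, 19 ADAMTS proteases and 5 ADAMTS-like proteins. Of these, 42 passed the filter on low counts, among 17699 genes tested in all. Messenger RNA was sequenced from 12 left ventricle samples in 4 groups of 3, labelled wild type after sham surgery, Prkca T497A after sham surgery, wild type after transverse aortic constriction (TAC) and Prkca T497A after TAC. T497A is a point mutant of protein kinase C alpha in which a threonine is replaced by alanine. TAC narrows the aorta (here to the width of a 27-gauge needle) and so raises the pressure the ventricle must pump against, and both operations were done at 10 weeks of age with tissue taken 1 week later, at 11 weeks. The mice share no other stated allele or agent, and the labels do not say whether the mutation is on 1 or both copies or whether each library comes from a separate animal, so the p-values cover the spread between these libraries alone, which may be technical.

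MMPs, ADAMTS proteases and their inhibitors build, trim and take apart the collagen, proteoglycan and elastic networks around heart cells or hold that in check. Most MMPs are made as inactive precursors that are cut on or near the cell surface. The membrane-type protease encoded by Mmp14 activates the gelatinase encoded by Mmp2, with the inhibitor encoded by Timp2 as a bridge. ADAMTS proteases trim procollagens or cut proteoglycans such as versican, whereas ADAMTS-like proteins share their accessory domains but have no protease domain. In the heart many of these genes are known as products of fibroblasts and other stromal cells rather than of muscle cells.

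Libraries held 58932759 to 72594085 counts, and levels are normalised read counts (CPM, which scales each library to the same total, with TMM factors). Even counts made up 66.3% of the values from 1 to 19 and 50.7% of those of 1000 and over, although the labels give single-end reads, so a floor set by counts may be too narrow. The cause was not tested. The labels name cardiomyocytes as the cell type, but 7 fibroblast markers summed to 2334 to 2625 CPM and 8 macrophage markers to 257 to 312 CPM in wild-type sham, beside 54042 to 60710 CPM for 6 cardiomyocyte markers, so the libraries are read as ventricular tissue. Prkca itself lay between 31.1 and 35.7 CPM in T497A sham and between 42.2 and 51.0 CPM in the other 9 libraries. In T497A TAC it lay between 43.7 and 50.3 CPM, and counts per gene cannot show a point mutation. Xist stood at 160 to 215 CPM in the T497A sham libraries and at 0.315 to 0.751 CPM in the other 9, while the Y-linked Ddx3y stood at 0.0999 to 0.396 CPM in T497A sham and at 73.6 to 108 CPM elsewhere. Another 104 autosomal genes were called apart at least 4-fold between the sham groups, of which 33 lie on chromosome 11 with Prkca. After TAC, 95 of the 104 had an estimate of the opposite sign, and 71 were called with that sign. Adamts4 is the 1 member among the 104. Differences between genotypes, after sham or after TAC, and those with TAC in T497A are therefore differences between labels. A member's TAC value in T497A is also given against wild-type sham where that changes the call, or moves a called value by over 1.5 times. Values called in neither setting are mostly not given so, and some changed sign, such as Mmp9 (-0.23, and 0.45 against wild-type sham). For genes outside the members, no fold change against wild-type sham is given. T497A sham 3 had an atrial marker sum of 799 CPM, against 27.9 to 210 CPM in the other sham libraries.

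Per kilobase of exon, the scale on which levels of different genes can be compared, Timp2 (36.9 ± 2.19 CPM per kilobase, SD, n = 3), Timp3 (31.0 ± 0.717) and the membrane-type protease gene Mmp15 (30 ± 0.711) led the members in wild-type sham. Timp2 and Timp3 differed by more than their spread there, and Timp3 and Mmp15 did not. Adamtsl5 (18.9 ± 1.57) and Mmp2 (18.8 ± 1.76) followed and did not differ beyond their spread. In wild-type TAC the order was Mmp2 (79.7 ± 8.98), Timp2 (73.5 ± 7.45), Timp1 (42.8 ± 19.2) and Timp3 (34.8 ± 3.91), in which the spread of Mmp2 overlapped that of Timp2 and the spread of Timp1 overlapped that of Timp3. In CPM, 20 members reached a mean of 10 in at least 1 group, 19 peaked between 1 and 10, and 12 stayed under 1 everywhere. The 9 members that did not pass the filter were Adamts13, Adamts18, Mmp1a, Mmp1b, Mmp7, Mmp10, Mmp20, Mmp21 and Mmp24, and no test is given for them. Mmp1a, Mmp7 and Mmp20 had no count in any library. Among these 9, Mmp7 encodes the matrilysin of epithelia, Mmp20 the enamel protease enamelysin and Adamts13 the protease that cuts von Willebrand factor. Adamts13 had 17 counts in the T497A TAC libraries together and 0 in the other 9 libraries, and Mmp24 had 81 counts in wild-type TAC, 12 in T497A TAC, 8 in T497A sham and 0 in wild-type sham.

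The members lie on 18 chromosomes, and 10 of the MMPs form 1 cluster on chromosome 9 from 7272514 to 7699585 (GRCm38): Mmp13, Mmp12, Mmp1b, Mmp3, Mmp1a, Mmp10, Mmp8, Mmp27, Mmp20 and Mmp7. These are secreted collagenases, stromelysins, elastase, matrilysin and relatives, and none had a group mean over the 4.08 CPM of Mmp3 in T497A sham. Per kilobase in wild-type sham, Mmp3 ranked 21 and Mmp13 25 of the 51 members, and the other 8 of the cluster ranked 36 or lower. Promoter windows from 250 bases before to 50 after the gene start (RefSeq, GRCm38.p6) matched 36 of the 51 members, with 39 windows, and 15 members, among them Mmp2, Mmp9, Adamts4 and Adamts8, had none. They were searched on both strands for TGANTCA (the AP-1 site), TATAAA (the TATA box) and TGTGGTT (a RUNX site), and no match overlapped another. TGANTCA was in 8 of the 39 windows (20.5%, against 7.81% of all 32851 promoter windows), TATAAA in 12 (30.8% against 13.6%) and TGTGGTT in 3 (7.69% against 5.27%). All 8 windows with TGANTCA and all 3 with TGTGGTT were among the 12 of the chromosome 9 cluster, and the 27 windows of the other members held 0 of either. The cluster windows were also poorer in G and C, at a median of 41.7% against 66.0%. A match is a description of letters and not a shown binding site.

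Printed below are 7 windows, 5′ to 3′ on the gene's strand, with matches in capitals. They come from the cluster and from members outside it that rose with TAC in wild type. Mmp3 of the cluster was called higher there as well. The windows of Mmp13 (chr9:7272264-7272563, plus strand) and Mmp3 (chr9:7445572-7445871, plus strand) carry TGANTCA and TATAAA, and the match of Mmp13 to TGTGGTT reads AACCACA on the gene's strand. The window of Adamts1 (chr16:85803064-85803363, minus strand) carries TATAAA starting 32 bases before the gene start, and that of Adamtsl2 (chr2:27079129-27079428, plus strand) carries it 30 bases before. Those of Timp1 (chrX:20869916-20870215, plus strand), Mmp14 (chr14:54431348-54431647, plus strand) and Adamts2 (chr11:50601835-50602134, plus strand) carry no match to these letters.
Mmp13: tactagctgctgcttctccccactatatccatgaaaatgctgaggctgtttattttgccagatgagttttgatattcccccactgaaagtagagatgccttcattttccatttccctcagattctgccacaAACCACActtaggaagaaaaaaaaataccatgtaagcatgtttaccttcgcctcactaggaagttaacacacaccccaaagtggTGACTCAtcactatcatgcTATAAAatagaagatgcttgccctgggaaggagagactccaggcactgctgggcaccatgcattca
Mmp3: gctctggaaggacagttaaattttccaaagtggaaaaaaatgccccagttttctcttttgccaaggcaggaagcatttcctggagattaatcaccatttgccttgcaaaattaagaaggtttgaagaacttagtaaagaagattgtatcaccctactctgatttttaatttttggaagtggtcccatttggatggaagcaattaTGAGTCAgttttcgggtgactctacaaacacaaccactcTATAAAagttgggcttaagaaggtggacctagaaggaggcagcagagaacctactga
Adamts1: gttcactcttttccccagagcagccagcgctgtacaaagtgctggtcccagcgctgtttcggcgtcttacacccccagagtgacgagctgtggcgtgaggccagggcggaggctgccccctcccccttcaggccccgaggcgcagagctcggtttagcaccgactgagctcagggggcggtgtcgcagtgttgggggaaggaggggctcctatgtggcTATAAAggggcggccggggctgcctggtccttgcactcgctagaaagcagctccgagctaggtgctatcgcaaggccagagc
Timp1: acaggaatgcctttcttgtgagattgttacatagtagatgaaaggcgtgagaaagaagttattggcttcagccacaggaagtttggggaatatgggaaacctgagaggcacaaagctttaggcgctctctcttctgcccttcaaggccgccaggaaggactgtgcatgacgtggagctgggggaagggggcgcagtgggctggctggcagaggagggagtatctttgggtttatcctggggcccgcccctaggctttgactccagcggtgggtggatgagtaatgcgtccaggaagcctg
Adamtsl2: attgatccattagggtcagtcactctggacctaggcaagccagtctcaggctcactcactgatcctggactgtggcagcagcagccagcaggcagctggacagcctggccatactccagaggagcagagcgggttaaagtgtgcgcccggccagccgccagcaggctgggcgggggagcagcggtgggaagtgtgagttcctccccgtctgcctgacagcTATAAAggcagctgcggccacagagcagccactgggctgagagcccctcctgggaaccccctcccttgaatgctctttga
Mmp14: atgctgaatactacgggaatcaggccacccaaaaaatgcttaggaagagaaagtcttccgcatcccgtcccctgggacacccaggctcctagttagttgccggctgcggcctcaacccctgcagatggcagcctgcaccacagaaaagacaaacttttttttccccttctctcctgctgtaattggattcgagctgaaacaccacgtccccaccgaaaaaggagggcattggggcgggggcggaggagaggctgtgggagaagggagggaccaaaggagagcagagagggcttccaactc
Adamts2: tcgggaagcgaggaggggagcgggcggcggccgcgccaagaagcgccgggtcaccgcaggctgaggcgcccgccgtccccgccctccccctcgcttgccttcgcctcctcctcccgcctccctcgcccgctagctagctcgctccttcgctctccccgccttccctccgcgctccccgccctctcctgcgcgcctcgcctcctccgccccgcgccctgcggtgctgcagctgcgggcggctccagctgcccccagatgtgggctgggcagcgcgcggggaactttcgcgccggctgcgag

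With pressure overload in wild type, most of these genes were higher: of 42 tested members 28 rose and 4 fell, where 25.9% of all genes tested rose and 24% fell. The median log2 fold change of the members was 0.86, against 0.03 for all genes. Genes are called by the edgeR quasi-likelihood test where the p adjusted over the 17699 genes (Benjamini-Hochberg) is under 0.05, and each log2 fold change is given with its standard error. With Adamts16 and Mmp8 set aside, which had 0 and 2 counts after wild-type sham, Timp1, Adamts12 and Adamts8 had the largest estimates. The members that fell were Timp4, Mmp9, Adamts7 and Adamtsl4. Without TMM factors 33 members rose and 1 fell, where 10357 of all 17699 genes were called in either direction. The median of all genes in this comparison was then 0.36, so directions here are relative to that shift. In bulk tissue, fewer cells of a type and less RNA per cell cannot be told apart. Beside these changes, the cardiomyocyte marker sum stood at 30409 to 34768 CPM in wild-type TAC, the fibroblast sum at 3480 to 5972 CPM, the activated fibroblast sum (5 markers) at 1508 to 3085 CPM against 144 to 192 CPM after sham, and the macrophage sum at 501 to 769 CPM. Of these lists, 5 of 6 cardiomyocyte markers fell and 0 rose, 6 of 7 fibroblast markers rose and 1 fell, all 5 activated fibroblast markers rose, and 7 of 8 macrophage markers rose and 1 fell. Their part in the members' changes was not tested.

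The 4 inhibitors went different ways. Timp1, the inducible inhibitor that also binds the precursor of the gelatinase encoded by Mmp9, lies on chromosome X at 20870166 to 20874735, inside the gene Syn1. Timp1 had 1.72, 2.15 and 1.35 CPM after sham and 32.2, 57.2 and 24.7 CPM after TAC in wild type, and 1.13, 2.22 and 2.48 CPM after sham and 4.3, 7.51 and 4.19 CPM after TAC in T497A. The 3 wild-type TAC libraries stood apart from the other 9, with wild-type TAC 2 the highest and no overlap with T497A TAC. Timp1 rose with TAC in wild type (log2 fold change 4.45 ± 0.44, adjusted p = 2.4e-05) and in T497A (1.45 ± 0.42, adjusted p = 0.033), and between the TAC groups it was lower in T497A (-2.84 ± 0.40, adjusted p = 0.00048). The rise in T497A was not called in 8 of 21 alternatives (adjusted p 0.0036 to 0.11), among them the fits without wild-type sham 1 (0.052), T497A sham 1 (0.1), T497A sham 2 (0.068), T497A sham 3 (0.055), T497A TAC 1 (0.052) or T497A TAC 2 (0.11).

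Timp2 encodes the inhibitor that takes part in the activation of the Mmp2 product and lies on chromosome 11, as do Adamts2, Mmp28 and Prkca. Timp2 had 140, 153 and 137 CPM after sham and 279, 319 and 262 CPM after TAC in wild type, and 183, 196 and 190 CPM after sham and 190, 179 and 159 CPM after TAC in T497A. The wild-type TAC libraries were above all others and the wild-type sham libraries below all others. It rose with TAC in wild type (1.0 ± 0.08, adjusted p = 2.8e-07), was higher after sham in T497A than in its wild-type counterpart (0.40 ± 0.08, adjusted p = 0.0091) and lower after TAC (-0.70 ± 0.08, adjusted p = 1.8e-05). In T497A the value with TAC was -0.11 ± 0.08, adjusted p = 0.37, which was not called, and against wild-type sham Timp2 was higher in T497A TAC (0.30, adjusted p = 0.032). The difference after sham was not called without wild-type sham 3 (adjusted p = 0.051).

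Timp3 encodes the matrix-bound inhibitor, which also acts on ADAMTS proteases, and lies inside Syn3, with 21.3% of its exon bases shared with that gene on the opposite strand. Timp3 had 249, 259 and 249 CPM after sham and 272, 320 and 259 CPM after TAC in wild type, and 352, 338 and 365 CPM after sham and 223, 234 and 238 CPM after TAC in T497A. The T497A sham libraries were above the other 9. Timp3 fell with TAC in T497A (-0.60 ± 0.07, adjusted p = 4.8e-05), but not against wild-type sham (-0.12, adjusted p = 0.31). It was higher in T497A after sham (0.48 ± 0.07, adjusted p = 0.0013) and lower after TAC (-0.29 ± 0.07, adjusted p = 0.0054). In wild type its value with TAC was 0.17 ± 0.07, adjusted p = 0.064, and 0.51, adjusted p = 0.00012 without TMM factors.

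Timp4 encodes the inhibitor best known from heart and lies inside Syn2 on chromosome 6. Timp4 had 57.2, 45.6 and 48.2 CPM after sham and 18.8, 8.52 and 22.2 CPM after TAC in wild type, and 38.1, 49.0 and 55.0 CPM after sham and 18.8, 31.1 and 41.0 CPM after TAC in T497A. The sham groups overlapped each other, and in wild-type TAC each library was below every sham library. Timp4 fell with TAC in wild type (-1.61 ± 0.38, adjusted p = 0.0067). T497A TAC spread from 18.8 to 41.0 CPM and overlapped wild-type TAC, and neither the value with TAC in T497A (-0.64 ± 0.37, adjusted p = 0.25) nor the difference between genotypes after TAC (0.88 ± 0.38, adjusted p = 0.1) was called. Timp4 was the 1 inhibitor of the 4 whose TAC response was not called different between genotypes (interaction 0.97 ± 0.52, adjusted p = 0.21).

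**Figure D1:**
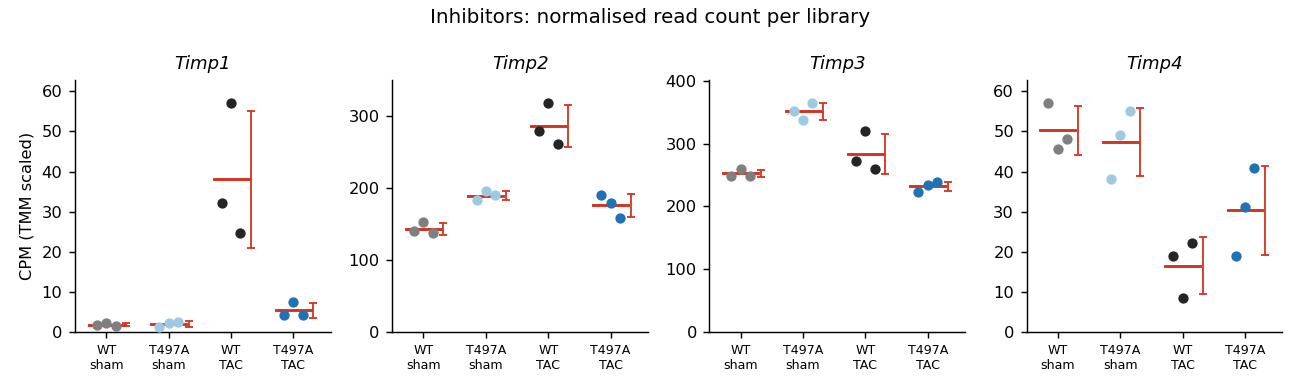
Normalised read counts (CPM, linear axis from 0) of the 4 inhibitors in each of the 12 libraries, by group. Points are libraries, red lines group means and red bars SD (n = 3). Timp1 is high in the 3 wild-type TAC libraries, Timp3 in the 3 T497A sham libraries, and Timp4 is low in wild-type TAC.

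Per kilobase of exon, the 4 TIMPs summed to 78.3 ± 2.89 after sham and 154 ± 29.3 after TAC in wild type, and to 102 ± 4.03 and 84.8 ± 3.35 in T497A (SD, n = 3). Timp1 made up 2.49 ± 0.478% of the sum after sham and 26.9 ± 6.80% after TAC in wild type, and 2.12 ± 0.724% and 7.02 ± 2.19% in T497A. The share of Timp3 stood at 39.6 ± 0.785% in wild-type sham and 22.8 ± 1.71% in wild-type TAC, and that of Timp4 at 10.9 ± 1.45% and 1.96 ± 1.08%. Timp2 kept 47.0 ± 1.23% and 48.3 ± 4.03%. These shares are descriptions and carry no test.

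The gelatinases, which cut denatured collagen and basement membrane, moved apart in wild type. Mmp2 is the gelatinase made by stromal cells. Mmp2 had 64.3, 68.8 and 57.0 CPM after sham and 261, 302 and 243 CPM after TAC in wild type, and 52.8, 71.4 and 56.8 CPM after sham and 119, 116 and 97.0 CPM after TAC in T497A. Both TAC groups lay above both sham groups and did not overlap each other. Mmp2 rose with TAC in wild type (2.08 ± 0.13, adjusted p = 1e-07) and in T497A (0.88 ± 0.12, adjusted p = 0.00033), and was lower in T497A after TAC (-1.28 ± 0.12, adjusted p = 1.2e-05). Mmp9, best known from neutrophils and macrophages, was scarce. Mmp9 had 0.512, 0.734 and 0.642 CPM after sham and 0.267, 0.446 and 0.176 CPM after TAC in wild type, and 1.01, 0.701 and 1.31 CPM after sham and 0.668, 1.17 and 0.744 CPM after TAC in T497A. All wild-type TAC libraries were below all libraries of the other groups. Mmp9 fell in wild type (-1.08 ± 0.40, adjusted p = 0.034) and was higher in T497A after TAC (1.53 ± 0.39, adjusted p = 0.0068), with no call for TAC in T497A (-0.23 ± 0.37, adjusted p = 0.7). The fall was lost in 6 of 20 alternatives: without TMM factors (-0.74, adjusted p = 0.14), with only the groups compared (adjusted p = 0.055), and without wild-type sham 2 (0.099), wild-type sham 3 (0.072), wild-type TAC 1 (0.093) or wild-type TAC 3 (0.13). Neutrophil markers summed to 0.643 to 2.40 CPM in all libraries, with the defining marker Ly6g at 0 in 3 of the 4 groups and at a mean of 0.0178 CPM in wild-type TAC.

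Among the membrane-type MMPs, which act at the cell surface, 4 of 5 tested members rose in wild type and 0 fell, where 25.9% and 24% of all genes did. Mmp14, the activator of the Mmp2 product, was the one that rose most. Mmp14 had 15.1, 16.2 and 13.9 CPM after sham and 86.6, 131 and 76.6 CPM after TAC in wild type, and 8.88, 10.2 and 9.2 CPM after sham and 33.8, 34.3 and 22.1 CPM after TAC in T497A. The 4 groups did not overlap: T497A sham was lowest, followed by wild-type sham, then T497A TAC, with wild-type TAC highest. Mmp14 rose in wild type (2.7 ± 0.22, adjusted p = 4.7e-06) and in T497A (1.67 ± 0.22, adjusted p = 0.00051; against wild-type sham 1.0, adjusted p = 0.019) and was lower in T497A after TAC (-1.70 ± 0.21, adjusted p = 0.00019). After sham the difference was not called (-0.68 ± 0.22, adjusted p = 0.12), although it was with only the groups compared (adjusted p = 0.0017), with the replicate block (0.022), with DESeq2 (0.0066) and without wild-type TAC 2 (0.025). Mmp16 was a low transcript. Mmp16 had 0.921, 0.991 and 1.01 CPM after sham and 2.83, 5.09 and 2.52 CPM after TAC in wild type, and 1.7, 1.8 and 1.33 CPM after sham and 1.06, 1.32 and 0.73 CPM after TAC in T497A. The wild-type TAC libraries were above all others, and Mmp16 rose in wild type (1.83 ± 0.29, adjusted p = 0.0001) and was lower in T497A after TAC (-1.75 ± 0.29, adjusted p = 0.0003).

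Mmp17 and Mmp25, whose products are held by a lipid anchor, rose in wild type by 0.94 ± 0.20 and 1.35 ± 0.43. Mmp25 also rose in T497A (1.73 ± 0.45, adjusted p = 0.013), from a mean of 0.184 to 0.612 CPM, but not against wild-type sham (1.02, adjusted p = 0.15) nor without T497A TAC 2 (adjusted p = 0.058). In wild type its call was lost without wild-type sham 2 (0.07) or wild-type TAC 2 (0.071). Mmp15, in contrast, had means of 162 ± 3.84, 144 ± 15.8, 125 ± 31.3 and 171 ± 4.68 CPM (SD, n = 3) in the order wild-type sham, T497A sham, wild-type TAC, T497A TAC. Its value with TAC in wild type was -0.37 ± 0.15, adjusted p = 0.057. Mmp15 was higher in T497A than in wild type after TAC (0.45 ± 0.15, adjusted p = 0.036), a call lost in 10 of 21 alternatives, among them no TMM factors (0.21, adjusted p = 0.21) and the fits without wild-type sham 2 (0.051), T497A sham 1 (0.052), wild-type TAC 1 (0.051), T497A TAC 1 (0.092), T497A TAC 2 (0.057) or T497A TAC 3 (0.091).

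The 23 MMPs summed per kilobase to 61.0 ± 1.88 after sham and 143 ± 11.6 after TAC in wild type, and to 56.5 ± 5.70 and 81.9 ± 6.27 in T497A (SD, n = 3). In wild type the share of Mmp15 was 49.2 ± 1.75% after sham and 16.5 ± 5.24% after TAC, and that of Mmp2 30.8 ± 2.15% and 55.8 ± 1.81%. In T497A TAC they were 38.8 ± 3.57% and 40.1 ± 1.49%. Mmp14 stood at 4.15 ± 0.204% of the sum in wild-type sham and 11.4 ± 2.37% in wild-type TAC.

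**Figure D2:**
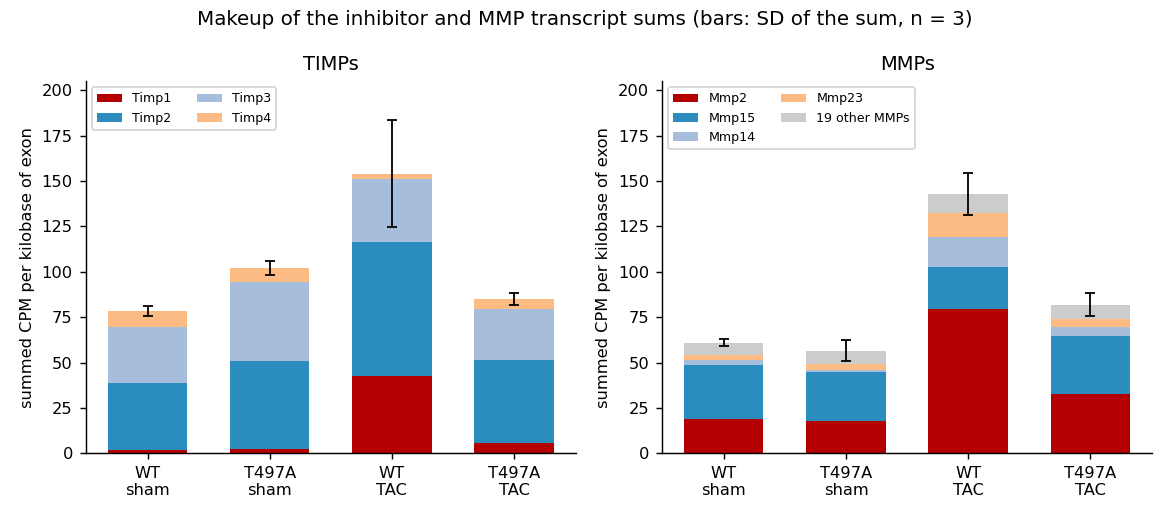
Mean CPM per kilobase of exon of the 4 TIMPs (left) and of the MMPs (right), stacked by gene in each group. Black bars are the SD of the sum (n = 3). The Timp1 and Mmp2 segments are largest in wild-type TAC, and the Mmp15 segment lies between 23.1 and 31.7 in the 4 groups.

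Among the MMPs with other or little known substrates, Mmp23, which has an unusual cysteine-rich array in place of the common hemopexin domain, changed most. Mmp23 had 6.04, 5.63 and 6.88 CPM after sham and 26.6, 37.3 and 26.8 CPM after TAC in wild type, and 5.55, 7.01 and 8.1 CPM after sham and 11.3, 11.5 and 9.01 CPM after TAC in T497A. The sham groups overlapped, and the wild-type TAC libraries lay above all others. Mmp23 rose in wild type (2.29 ± 0.17, adjusted p = 2e-07) and in T497A (0.62 ± 0.16, adjusted p = 0.014), and was lower in T497A after TAC (-1.51 ± 0.16, adjusted p = 1.4e-05). Its call in T497A was lost without T497A sham 1 (0.051) or T497A TAC 2 (0.058). Mmp19, which shares 22.3% of its exon bases with Tmem198b on the other strand, so that reads of the 2 genes may be mixed, followed the same order in wild type. Mmp19 had 3.09, 2.29 and 2.67 CPM after sham and 6.57, 7.22 and 5.28 CPM after TAC in wild type, and 3.22, 3.31 and 4.43 CPM after sham and 3.19, 3.37 and 3.56 CPM after TAC in T497A. It rose in wild type (1.24 ± 0.17, adjusted p = 3.5e-05) and was lower in T497A after TAC (-0.91 ± 0.17, adjusted p = 0.00081). Mmp28 and Mmp27 were not called in any of the 5 comparisons, at group means of 3.36 to 5.19 CPM and 0.113 to 0.214 CPM.

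Of the collagenases and stromelysins of the chromosome 9 cluster, Mmp13, Mmp8 and Mmp3 passed the filter, and each was called in some of the comparisons. Mmp13, the main rodent interstitial collagenase, stood near 1 CPM. Mmp13 had 0.836, 1.65 and 1.22 CPM after sham and 1.26, 1.29 and 0.807 CPM after TAC in wild type, and 0.359, 0.609 and 0.533 CPM after sham and 1.58, 1.35 and 0.973 CPM after TAC in T497A. T497A sham was below the other groups, which overlapped one another. Mmp13 was lower in T497A after sham (-1.30 ± 0.33, adjusted p = 0.034), and within T497A it rose with TAC (1.37 ± 0.33, adjusted p = 0.0081), while against wild-type sham it was not called (0.08, adjusted p = 0.92). The call after sham was lost in 7 of 20 alternatives, among them the fits without wild-type sham 2 (0.15), wild-type sham 3 (0.087), T497A sham 1 (0.12), T497A sham 3 (0.089), wild-type TAC 1 (0.051) or T497A TAC 2 (0.056). Mmp8, the neutrophil collagenase, rested on 2 counts after sham and 34 after TAC in wild type, and on 34 and 20 in T497A. Its rise in wild type (adjusted p = 0.027) was lost without wild-type sham 1 (0.094), wild-type sham 2 (0.09), wild-type TAC 1 (0.056) or wild-type TAC 3 (0.085).

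Mmp3 (stromelysin-1) had means of 1.87 ± 0.543, 4.08 ± 0.79, 3.35 ± 0.396 and 2.76 ± 1.31 CPM (SD, n = 3) in the order wild-type sham, T497A sham, wild-type TAC, T497A TAC. Its rise in wild type (0.84 ± 0.32, adjusted p = 0.041) was lost in 10 of 21 alternatives, among them the replicate block (adjusted p = 0.06) and the fits without wild-type sham 1 (0.13), wild-type sham 3 (0.14), T497A sham 2 (0.055), wild-type TAC 1 (0.08), wild-type TAC 2 (0.057), wild-type TAC 3 (0.11) or T497A TAC 2 (0.06). Mmp11 (stromelysin-3), with 5.6% of its exon bases shared with Chchd10 on the other strand, rose in wild type (0.45 ± 0.15, adjusted p = 0.018), in T497A (0.56 ± 0.15, adjusted p = 0.013) and was lower in T497A after TAC (-0.40 ± 0.14, adjusted p = 0.043). T497A TAC against wild-type sham was not called (0.05, adjusted p = 0.88). The wild-type call was lost without wild-type sham 2 (0.055), wild-type sham 3 (0.071) or wild-type TAC 1 (0.071), the T497A call without T497A sham 3 (0.058) or T497A TAC 1 (0.068), and the call after TAC in 8 of 21 alternatives (adjusted p up to 0.21), 7 of which leave out wild-type sham 1, 2 or 3, wild-type TAC 1 or 2, or T497A TAC 2 or 3. Mmp12, the macrophage elastase, was not called in any of the 5 comparisons, at group means of 0.322 to 1.04 CPM, although the macrophage marker sum was higher in wild-type TAC.

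Of the 7 ADAMTS proteoglycanases, which cut versican and aggrecan, 5 rose and 0 fell with TAC in wild type (of all genes 25.9% and 24%), and 4 rose and 0 fell in T497A (12.9% and 11.4%). Adamts1 was the most abundant of them and had a TAC response called larger in T497A (interaction 0.93 ± 0.17, adjusted p = 0.0015). Adamts1 had 57.3, 66.6 and 78.0 CPM after sham and 92.6, 98.5 and 91.0 CPM after TAC in wild type, and 40.2, 45.4 and 44.8 CPM after sham and 96.8, 117 and 134 CPM after TAC in T497A. T497A sham was below the other groups, and the TAC groups, above both sham groups, overlapped each other. Adamts1 rose in wild type (0.48 ± 0.12, adjusted p = 0.0046) and in T497A (1.41 ± 0.12, adjusted p = 8.3e-06), and was lower in T497A after sham (-0.63 ± 0.12, adjusted p = 0.0093). Against wild-type sham the T497A TAC value was 0.78, adjusted p = 0.0025.

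Adamts4 encodes an aggrecanase. Adamts4 had 0.989, 1.06 and 0.778 CPM after sham and 4.25, 7.73 and 3.05 CPM after TAC in wild type, and 0.163, 0.244 and 0.233 CPM after sham and 2.26, 2.05 and 2.42 CPM after TAC in T497A. The 4 groups did not overlap, with T497A sham the lowest, followed by wild-type sham, then T497A TAC, with wild-type TAC highest. Adamts4 rose in wild type (2.41 ± 0.30, adjusted p = 1.2e-05) and in T497A (3.38 ± 0.35, adjusted p = 1.4e-05), and was lower in T497A both after sham (-2.13 ± 0.36, adjusted p = 0.0031) and after TAC (-1.16 ± 0.28, adjusted p = 0.0049). Against wild-type sham the T497A TAC value was 1.25, adjusted p = 0.018, and the interaction was not called (0.97 ± 0.46, adjusted p = 0.13), though it was without wild-type TAC 2 (1.43, adjusted p = 0.0084). Adamts8, a less studied member, shares 10.6% of its exon bases with an antisense gene on the other strand. Adamts8 had 1.07, 1.14 and 0.541 CPM after sham and 8.11, 10.9 and 7.5 CPM after TAC in wild type, and 1.05, 1.08 and 2.18 CPM after sham and 3.34, 2.97 and 2.25 CPM after TAC in T497A. All wild-type TAC libraries were above all others. Adamts8 rose in wild type (3.27 ± 0.33, adjusted p = 3e-06) and was lower in T497A after TAC (-1.63 ± 0.30, adjusted p = 0.00084). In T497A its rise (0.99 ± 0.31, adjusted p = 0.033; against wild-type sham 1.64, adjusted p = 0.0079) was lost in 6 of 21 alternatives, among them the replicate block (adjusted p = 0.067) and the fits without T497A sham 1 (0.11), T497A sham 2 (0.11), T497A TAC 1 (0.11) or T497A TAC 2 (0.093).

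Of the other proteoglycanases, Adamts20 rose in wild type (2.26 ± 0.32, adjusted p = 4.3e-05) from 0.508 ± 0.0927 to 2.44 ± 0.993 CPM (SD, n = 3). Adamts9, which shares 9.2% of its exon bases with an overlapping gene on the other strand, rose in wild type (0.59 ± 0.19, adjusted p = 0.026) and in T497A (0.80 ± 0.19, adjusted p = 0.013). The first call was lost with no filter beyond a nonzero total (0.084) and without wild-type sham 2 (0.062), wild-type sham 3 (0.09), wild-type TAC 1 (0.058), wild-type TAC 2 (0.076) or wild-type TAC 3 (0.073). The second was lost against wild-type sham (0.62, adjusted p = 0.072). Adamts15 was lower in T497A after TAC (-0.98 ± 0.31, adjusted p = 0.033), a call lost without wild-type TAC 1 (0.095), wild-type TAC 3 (0.11), T497A TAC 2 (0.1) or T497A TAC 3 (0.11). It was also lost with no filter beyond a nonzero total (0.09) and without the T497A sham group (0.051). Adamts5, the main aggrecanase of mouse cartilage, was not called in any of the 5 comparisons, at group means of 39.7 to 54.2 CPM.

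**Figure D3:**
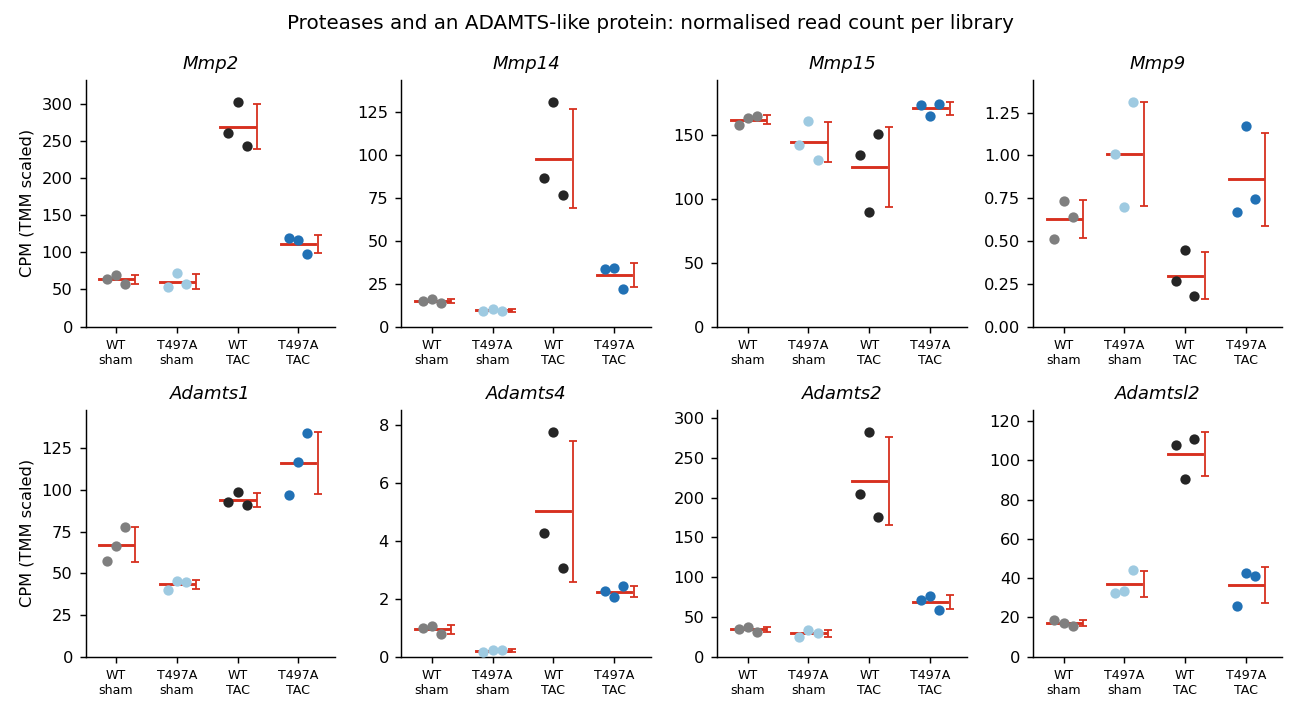
Normalised read counts (CPM, linear axes from 0) of 7 proteases and Adamtsl2 in each of the 12 libraries, by group. Points are libraries, red lines group means and red bars SD (n = 3). Mmp2, Mmp14, Adamts2 and Adamtsl2 are highest in the 3 wild-type TAC libraries, Mmp9 is lowest there, and Adamts1 is lowest in T497A sham.

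The procollagen N-proteinases remove the amino-terminal propeptide of fibrillar collagens. Adamts2 is the main one. Adamts2 had 35.4, 37.1 and 31.4 CPM after sham and 204, 282 and 175 CPM after TAC in wild type, and 24.3, 33.4 and 30.4 CPM after sham and 71.9, 76.4 and 58.8 CPM after TAC in T497A. Both TAC groups were above both sham groups, without overlap between them. Adamts2 rose in wild type (2.67 ± 0.19, adjusted p = 1.4e-06) and in T497A (1.23 ± 0.18, adjusted p = 0.00094) and was lower in T497A after TAC (-1.67 ± 0.18, adjusted p = 7e-05). Adamts14 was less abundant. Adamts14 had 2.17, 1.8 and 1.86 CPM after sham and 3.18, 3.48 and 3.86 CPM after TAC in wild type, and 1.42, 1.69 and 1.63 CPM after sham and 2.32, 2.95 and 2.88 CPM after TAC in T497A. In each genotype the TAC libraries were above the sham libraries, and Adamts14 rose in wild type (0.85 ± 0.17, adjusted p = 0.00077) and in T497A (0.78 ± 0.17, adjusted p = 0.0047), the latter not called against wild-type sham (0.48, adjusted p = 0.09). Its TAC responses were not called different (-0.07 ± 0.24, adjusted p = 0.86). Adamts3 was not called in any of the 5 comparisons, at group means of 3.95 to 4.75 CPM.

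Among the remaining ADAMTS genes, Adamts12, whose product can cut cartilage oligomeric matrix protein, rose in both genotypes. Adamts12 had 2.39, 3.1 and 1.93 CPM after sham and 32.6, 41.7 and 26.3 CPM after TAC in wild type, and 1.37, 2.92 and 1.85 CPM after sham and 9.49, 10.2 and 7.51 CPM after TAC in T497A. The sham groups overlapped, and T497A TAC lay between them and wild-type TAC. It rose in wild type (3.76 ± 0.28, adjusted p = 1.3e-06) and in T497A (2.14 ± 0.28, adjusted p = 0.00032) and was lower in T497A after TAC (-1.89 ± 0.25, adjusted p = 0.00021). Adamts17 and Adamts10 encode proteins associated with fibrillin microfibrils. Adamts17 had 1.14, 0.954 and 0.947 CPM after sham and 4.48, 4.83 and 4.06 CPM after TAC in wild type, and 0.882, 1.2 and 0.949 CPM after sham and 1.5, 1.91 and 2.03 CPM after TAC in T497A. The wild-type TAC libraries were highest and the T497A TAC libraries next, without overlap with the sham libraries. It rose in wild type (2.13 ± 0.20, adjusted p = 8.9e-07) and in T497A (0.84 ± 0.20, adjusted p = 0.0068), and was lower in T497A after TAC (-1.29 ± 0.19, adjusted p = 0.00012). Adamts10 had 27.7, 23.2 and 32.8 CPM after sham and 59.3, 71.1 and 55.4 CPM after TAC in wild type, and 25, 25.7 and 31.1 CPM after sham and 26.9, 33.6 and 32.4 CPM after TAC in T497A. For Adamts10 the wild-type TAC libraries were above all others, which overlapped, and the gene rose in wild type (1.15 ± 0.14, adjusted p = 2.5e-05), was lower in T497A after TAC (-1.0 ± 0.14, adjusted p = 0.00017) and was not called with TAC in T497A (0.18 ± 0.14, adjusted p = 0.38).

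Adamts16 had 0 counts in the 3 wild-type sham libraries and 2 in T497A sham. It would not have passed the filter on low counts without the wild-type TAC libraries, where it is highest. Its calls are therefore no independent support, though they enter the counts of members that rose in wild type and were lower in T497A after TAC. In wild-type TAC it stood at 1.74, 6.0 and 0.655 CPM and in T497A TAC at 0.273, 0.0615 and 0.0 CPM. Against a floor of 3 counts over the wild-type sham group (0.0174 CPM), the wild-type TAC mean of 2.80 CPM was at least 161-fold higher, and the rise was called (adjusted p = 0.0031). Without wild-type TAC 2, the highest library, the mean was 1.2 CPM and the limit 68.8-fold. Without wild-type TAC 1 the limit was 191-fold, and without wild-type TAC 3 222-fold. The difference after TAC (adjusted p = 0.016) was lost without T497A TAC 2 (0.067) and with no filter beyond a nonzero total (-4.63, adjusted p = 0.059). Adamts7 went the other way, at 29.6 ± 2.34 CPM in wild-type sham and 20.9 ± 0.784 CPM in wild-type TAC (SD, n = 3). Adamts7 fell in wild type (-0.50 ± 0.07, adjusted p = 5.8e-05) and in T497A (-0.27 ± 0.07, adjusted p = 0.017), the first not called without TMM factors (-0.17, adjusted p = 0.071) and the second not called without T497A sham 2 (0.074), T497A TAC 1 (0.052) or T497A TAC 2 (0.057). Adamts6 rose in wild type (0.87 ± 0.20, adjusted p = 0.0021), and Adamts19 was called for the interaction alone (-1.43 ± 0.44, adjusted p = 0.025), which was lost without wild-type sham 3 (0.063), T497A sham 3 (0.078), wild-type TAC 1 (0.075), T497A TAC 1 (0.053) or T497A TAC 2 (0.067).

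ADAMTS-like proteins bind microfibrils and growth factor complexes. Of the 5, 4 rose and 1 fell with TAC in wild type, where 25.9% and 24% of all genes did. Adamtsl2, whose product binds fibrillin and a latent TGF-beta binding protein, had the largest change. Adamtsl2 had 18.5, 17.1 and 15.6 CPM after sham and 108, 90.5 and 111 CPM after TAC in wild type, and 32.4, 33.7 and 44.4 CPM after sham and 25.9, 42.5 and 41.1 CPM after TAC in T497A. Wild-type sham was below and wild-type TAC above all other libraries, and the T497A groups overlapped. Adamtsl2 rose in wild type (2.60 ± 0.20, adjusted p = 2.1e-06), was higher in T497A after sham (1.11 ± 0.19, adjusted p = 0.0083) and lower after TAC (-1.5 ± 0.19, adjusted p = 0.00017). In T497A the value with TAC was -0.01 ± 0.19, adjusted p = 0.97, and against wild-type sham 1.10, adjusted p = 0.007.

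Adamtsl4 encodes a microfibril protein of the eye's zonule. Adamtsl4 had 62.8, 64.6 and 74.4 CPM after sham and 56.5, 51.6 and 58.0 CPM after TAC in wild type, and 93.7, 85.0 and 81.0 CPM after sham and 64.6, 70.5 and 70.1 CPM after TAC in T497A. T497A sham was above all other libraries and wild-type TAC below all. Adamtsl4 fell in wild type (-0.28 ± 0.08, adjusted p = 0.0071) and in T497A (-0.34 ± 0.08, adjusted p = 0.0053), and was higher in T497A after sham (0.36 ± 0.08, adjusted p = 0.013) and after TAC (0.31 ± 0.08, adjusted p = 0.0064). Without TMM factors its sign in wild type changed (0.05, adjusted p = 0.62) and the difference after TAC was not called (0.06, adjusted p = 0.59). Against wild-type sham the value in T497A was not called (0.02, adjusted p = 0.89), and the call after sham was lost without wild-type sham 1 (0.07), wild-type sham 2 (0.066) or T497A sham 1 (0.053). Adamtsl5 rose in both genotypes (0.54 ± 0.07 and 0.28 ± 0.07), the second not called against wild-type sham (0.18, adjusted p = 0.11). Adamtsl1 and Adamtsl3 rose in wild type (0.78 ± 0.20 and 1.14 ± 0.30). Adamtsl3 had 16.3, 34.1 and 14.2 CPM in wild-type TAC, with wild-type TAC 2 the highest. Its rise was called in every alternative, at estimates from 0.64 to 1.49.

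With TAC in T497A, 16 of the 42 tested members rose and 3 fell, where 12.9% of all genes rose and 11.4% fell, and the median of the members was 0.26 against 0.00 for all genes. The 16 that rose were Adamts1, Adamts2, Adamts4, Adamts8, Adamts9, Adamts12, Adamts14, Adamts17, Adamtsl5, Mmp2, Mmp11, Mmp13, Mmp14, Mmp23, Mmp25 and Timp1, and the 3 that fell were Timp3, Adamts7 and Adamtsl4. Against wild-type sham in place of T497A sham, T497A TAC had 12 members higher and 1 lower. There, 1773 of all 17699 genes were called in either direction. The activated fibroblast marker sum stood at 253 to 447 CPM in T497A TAC and 174 to 257 CPM in T497A sham, with 3 of 5 markers risen and 0 fallen, and the macrophage sum at 344 to 371 and 305 to 358 CPM, with 3 of 8 risen and 1 fallen. The fibroblast sum was 2079 to 2722 CPM after TAC and 2596 to 3334 CPM after sham, with 1 of 7 risen and 1 fallen. The cardiomyocyte sum was 47732 to 51562 CPM after TAC and 59215 to 60676 CPM after sham, with 4 of 6 fallen and 0 risen, and the atrial sum 31.6 to 53.8 and 181 to 799 CPM, with 3 of 4 tested fallen and 0 risen. Their part in the members' values was not tested.

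Between the sham groups, T497A had 4 members higher and 3 lower, where 2.99% and 2.8% of all genes were, and the median was -0.01 against 0.00 for all genes. The 4 were Timp2, Timp3, Adamtsl2 and Adamtsl4, and the 3 were Adamts1, Adamts4 and Mmp13. This comparison also sets libraries with Y-linked transcripts against libraries without them, and the 2 cannot be told apart. The number called was 5 without T497A sham 1, wild-type sham 2 or wild-type sham 3, and 11 without wild-type TAC 2, a library of neither group that enters through the shared estimate of the spread. Of 18181 to 18395 genes tested, 679, 505, 537 and 1607 were called in these fits, in the same order.

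Between the TAC groups, T497A had 4 members higher and 23 lower, where 17.8% and 17.9% of all genes were, and the median was -0.59 against -0.02 for all genes. Those higher were Mmp9, Mmp15, Adamts7 and Adamtsl4. As given above, differences in this comparison are differences between labels. Without TMM factors 1 member was higher and 27 lower, where 8332 of all 17699 genes were called in either direction. The median of all genes was then -0.267, and Adamts7 (-0.03, adjusted p = 0.8), Adamtsl4 and Mmp15 were not called. Adamts7 (0.22 ± 0.07, adjusted p = 0.029) was also not called with no filter beyond a nonzero total (0.052) and without wild-type TAC 2 (0.081), wild-type TAC 3 (0.06), T497A TAC 1 (0.05), T497A TAC 2 (0.051) or T497A TAC 3 (0.073). Among the lower members not yet given for this comparison, Adamts20 was at -1.60 ± 0.31, Adamtsl5 at -0.36 ± 0.07, Adamtsl3 at -1.0 ± 0.29, Adamts6 at -0.60 ± 0.20 and Mmp17 at -0.57 ± 0.20. Left-out libraries ended the calls of Adamtsl3 (without T497A TAC 2 (0.084) or T497A TAC 3 (0.079)), Adamts6 (without wild-type TAC 1 (0.057), wild-type TAC 2 (0.14) or T497A TAC 3 (0.12)) and Mmp17 (without wild-type TAC 2 (0.23), T497A TAC 1 (0.11) or T497A TAC 3 (0.12)). Over all alternatives the Adamtsl3 estimate ran from -1.26 to -0.5. Of the markers, 5 of 6 for cardiomyocytes were higher and 0 lower in T497A TAC, 1 of 7 for fibroblasts higher and 6 lower, 4 of 5 for activated fibroblasts lower and 0 higher, and 7 of 8 for macrophages lower and 0 higher. Their part was not tested.

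The interaction, which asks whether the TAC response differs between genotypes, was called for 3 members with a larger and 21 with a smaller estimate in T497A, where 15.3% and 14.2% of all genes were, and the median was -0.96 against -0.01. It includes the T497A sham group and so the differences between labels given above. The smallest p-values were those of Timp2 (-1.10 ± 0.11, adjusted p = 1.5e-05), Adamtsl2 (-2.61 ± 0.27, adjusted p = 8.5e-05), Timp3 (-0.77 ± 0.10, adjusted p = 9.6e-05), Mmp23 (-1.66 ± 0.23, adjusted p = 0.00019), Mmp2 (-1.21 ± 0.17, adjusted p = 0.00033), Mmp16 (-2.47 ± 0.41, adjusted p = 0.00053), Mmp19 (-1.36 ± 0.24, adjusted p = 0.00098) and Adamts1 (0.93 ± 0.17, adjusted p = 0.0015), the last of these with the larger response in T497A. Timp2, Timp3 and Adamtsl2 were already higher in T497A after sham. The 3 larger estimates were those of Adamts1, Mmp13 and Mmp15, of which Mmp13 (1.22, adjusted p = 0.052) and Mmp15 (0.33, adjusted p = 0.18) were not called without TMM factors. Single libraries ended these calls too, for Mmp13 without wild-type sham 2 (0.066), T497A sham 1 (0.051) or T497A TAC 1 (0.056), and for Mmp15 in 12 of 19 alternatives.

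**Figure D4:**
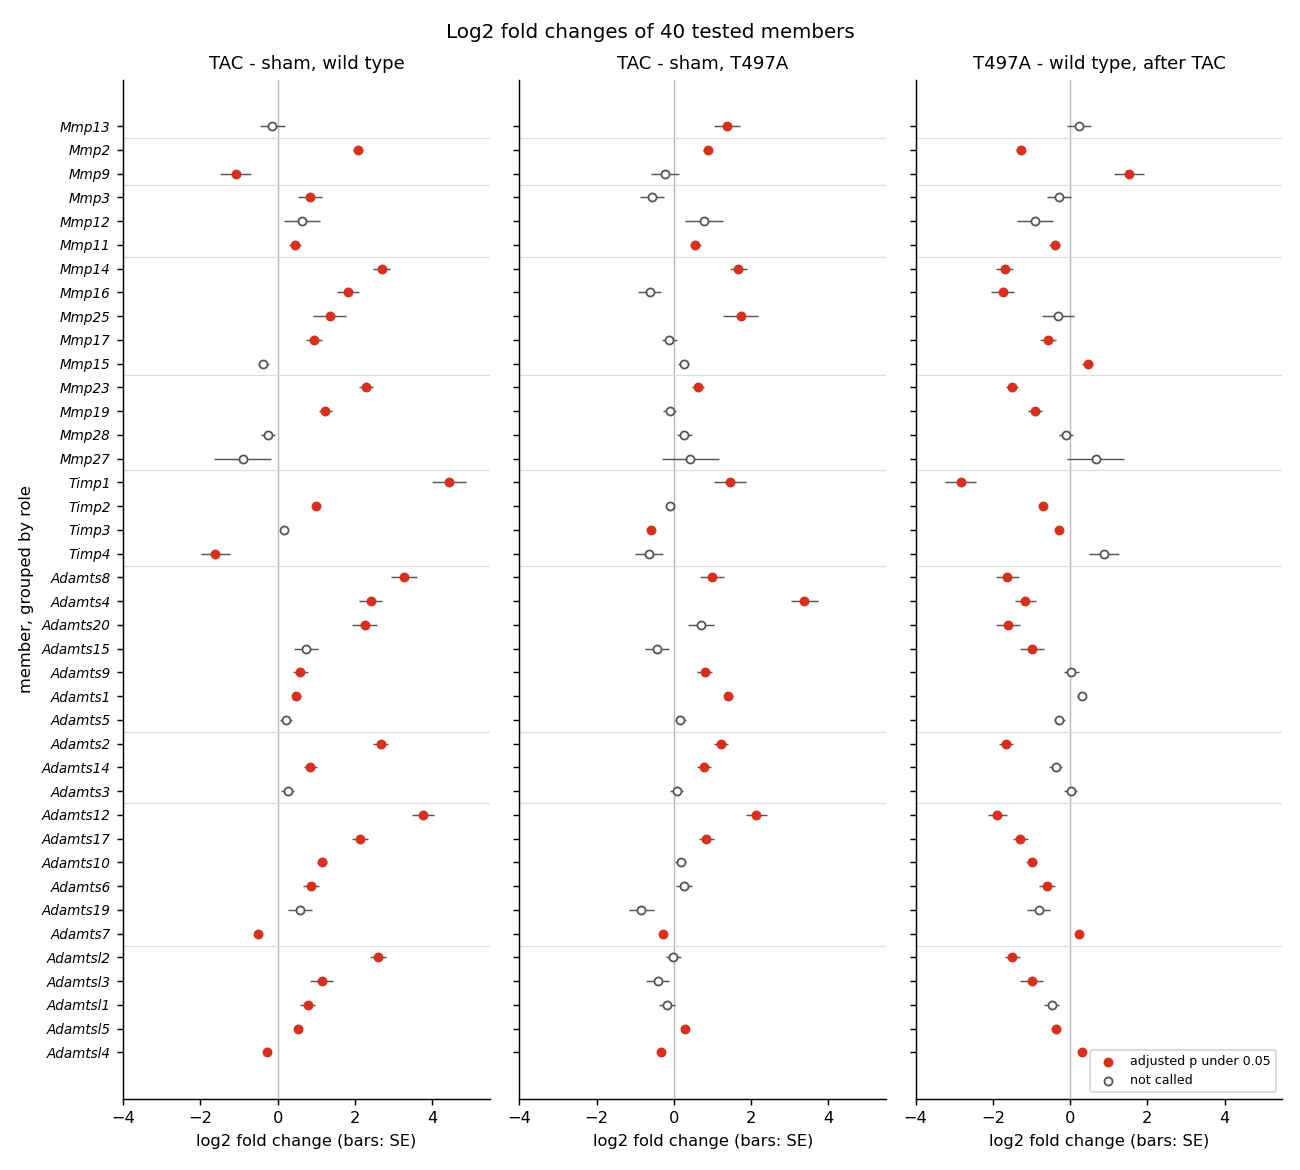
Log2 fold changes with SE of 40 tested members in 3 comparisons, grouped by role (horizontal lines). Red points have an adjusted p under 0.05, and Adamts16 and Mmp8 are left out because of their few counts in sham. Most red points lie right of 0 for TAC in wild type and left of 0 for T497A against wild type after TAC.

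Genes that act around these proteases were taken from 3 lists. Of 13 tested members of the plasminogen system and protease control (of 17 listed), 7 rose and 2 fell in wild type (of all genes 25.9% and 24%), 4 rose and 2 fell in T497A (12.9% and 11.4%), and between the TAC groups 2 were higher and 6 lower in T497A (17.8% and 17.9%). Lrp1, the receptor that clears proteases and inhibitors from the cell surface, rose in wild type (0.98 ± 0.07, adjusted p = 1.4e-07). Plat (tissue plasminogen activator, 0.90 ± 0.09) rose there too, and Spock2 (testican-2, -1.08 ± 0.13) and Bsg, an inducer of MMPs (-0.56 ± 0.08), fell. Lrp1 was lower in T497A after TAC (-0.73 ± 0.07, adjusted p = 7.2e-06), as were Serpine2 (protease nexin-1, -1.49 ± 0.22) and Reck, a membrane-anchored inhibitor of MMPs (-0.39 ± 0.10), while Spock2 was higher (0.59 ± 0.13). The median of the list was 0.50 in wild type and 0.02 in T497A.

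Of 21 tested other matrix proteases and enhancers (of 23 listed), 17 rose and 2 fell in wild type (of all genes 25.9% and 24%), 7 rose and 3 fell in T497A (12.9% and 11.4%), and between the TAC groups 2 were higher and 14 lower in T497A (17.8% and 17.9%). Pcolce, which speeds the removal of the carboxy-terminal propeptide of procollagen, rose in wild type (1.92 ± 0.12, adjusted p = 1.1e-07). The procollagen C-proteinase gene Bmp1 (1.71 ± 0.13), the lysosomal collagenase gene Ctsk (2.76 ± 0.21) and Adam9 (0.82 ± 0.08) rose with it. In T497A, Adam19 (1.16 ± 0.14), Adam10 (0.50 ± 0.07) and Papln (1.17 ± 0.22) rose and Htra3, a secreted serine protease, fell (-0.69 ± 0.11). Adam19 stood at 14.1 ± 0.823 CPM in T497A sham, 19.6 ± 3.4 in wild-type sham and 31.6 ± 5.23 in T497A TAC (SD, n = 3). Papln stood at 14.5 ± 3.88, 19.8 ± 1.45 and 32.6 ± 5.07 CPM in the same order, so part of each rise rests on a low T497A sham. Htra3 stood at 161 ± 10.7 CPM in T497A sham and 99.8 ± 1.29 in T497A TAC (SD, n = 3), with 104 ± 6.96 CPM in wild-type sham, and was higher in T497A after sham (0.64 ± 0.11, adjusted p = 0.0054). After TAC, Pcolce (-1.44 ± 0.12), Adam9 (-0.80 ± 0.08) and Bmp1 (-1.26 ± 0.12) were lower in T497A.

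Of 12 tested substrates (of 13 listed), 9 rose and 0 fell in wild type (of all genes 25.9% and 24%), 6 rose and 0 fell in T497A (12.9% and 11.4%), and between the TAC groups 0 were higher and 7 lower in T497A (17.8% and 17.9%). The basement membrane collagen gene Col4a1 rose from 563 ± 33.1 to 2079 ± 141 CPM in wild type (SD, n = 3; log2 fold change 1.89 ± 0.10, adjusted p = 5.6e-09). Versican, encoded by Vcan and cut by the proteoglycanases, rose from 25.8 ± 2.94 to 108 ± 10.8 CPM (2.07 ± 0.15, adjusted p = 4e-07), and elastin (Eln) rose by 4.09 ± 0.33. In T497A these were at 1.36 ± 0.09, 0.58 ± 0.14 and 1.89 ± 0.30, all called. The median of the list was 2.55 in wild type and 1.16 in T497A.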

How the data were processed

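RNA of 12 left ventricle samples was sequenced. The deposited table holds whole-number read counts per gene, which the authors made with Trim Galore 0.6.4, STAR 2.7.3a and featureCounts (Subread 1.6.3), per the submitters' processing notes. Those notes also name limma 3.50.3 and the builds mm10 and GRCh38 with no role. Strand use in counting is not given in the sources used here. Gene positions and exon lengths come from GENCODE M21 (GRCm38), which matched 55141 of 55401 identifiers.

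Counts were filtered with filterByExpr, scaled by TMM and fitted over 4 group means and all 12 libraries with the robust quasi-likelihood test of edgeR 4.0.16 (R 4.3.3). Benjamini-Hochberg adjustment ran over 17699 genes, and genes under 0.05 were called. A standard error is the log2 fold change divided by the root of F. The fit was tried on simulated counts in which far fewer genes changed than were called here, so it does not cover a change of this breadth. A first bar on recovery and false calls was not met on the first draw. It was replaced by criteria on calibration over more draws, and the fit itself was not changed. Alternatives used DESeq2 1.42.0, limma 3.58.1 (voom with quality weights), other scalings and filters, a replicate block, only the groups compared, and left-out libraries. Chi-square per degree of freedom between replicates ran from 11.4 to 153, so no library was a copy of another. The highest values, 153 and 85, were those of wild-type TAC 2 against its replicates, so that library stood furthest from its group.

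The members and lists were chosen with earlier results of these data known. Values in every library are given for Timp1 to Timp4, Mmp2, Mmp9, Mmp14 and the called members of smallest p in each comparison, 8 at most. Of each other list, at most 4 called ones are named per comparison, by the same order. Figures were drawn with matplotlib 3.10.9.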

Additional observations from a re-analysis of the deposited data

Results flagged for a closer look

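The TAC response differed between genotypes, by the interaction test of edgeR at an adjusted p under 0.05, for 24 members. No group was large enough for a test of single outlying samples. Each value below is the log2 fold change with TAC in T497A minus that in wild type, with its standard error, and it includes the T497A sham group described above.

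The estimate was larger in T497A for Adamts1 (0.93 ± 0.17), Mmp13 (1.52 ± 0.46) and Mmp15 (0.62 ± 0.21). The Mmp15 call was lost without wild-type sham 1 (0.076), wild-type sham 2 (0.086), wild-type sham 3 (0.089), T497A sham 1 (0.093), T497A sham 3 (0.11), wild-type TAC 1 (0.057), T497A TAC 1 (0.094), T497A TAC 2 (0.067) or T497A TAC 3 (0.091) (adjusted p in parentheses), and the Mmp13 call without wild-type sham 2 (0.066), T497A sham 1 (0.051) or T497A TAC 1 (0.056).

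Among inhibitors the estimate was smaller in T497A for Timp1 (-3.0 ± 0.59), Timp2 (-1.10 ± 0.11) and Timp3 (-0.77 ± 0.10). Among MMPs it was smaller for Mmp2 (-1.21 ± 0.17), Mmp3 (-1.40 ± 0.44), Mmp8 (-4.32 ± 1.5), Mmp14 (-1.03 ± 0.30), Mmp16 (-2.47 ± 0.41), Mmp17 (-1.06 ± 0.29), Mmp19 (-1.36 ± 0.24) and Mmp23 (-1.66 ± 0.23). The Mmp14 call was lost in 6 of 19 alternatives, among them the fits without wild-type sham 1 (0.062), wild-type sham 3 (0.067), T497A sham 2 (0.067) or T497A sham 3 (0.058). Left-out libraries that ended the Mmp3 call were wild-type sham 1 (0.073), wild-type sham 3 (0.076), T497A sham 3 (0.073), wild-type TAC 1 (0.054), wild-type TAC 3 (0.058) and T497A TAC 2 (0.058). Mmp8 rests on 90 counts in all 12 libraries, and its call was lost without wild-type sham 1 (0.11), wild-type sham 2 (0.1), T497A sham 2 (0.069), T497A sham 3 (0.13), wild-type TAC 1 (0.078), wild-type TAC 3 (0.095), T497A TAC 1 (0.087) or T497A TAC 3 (0.087).

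Among ADAMTS genes the estimate was smaller for Adamts2 (-1.44 ± 0.26), Adamts8 (-2.27 ± 0.44), Adamts10 (-0.97 ± 0.20), Adamts12 (-1.63 ± 0.38), Adamts17 (-1.29 ± 0.28), Adamts19 (-1.43 ± 0.44) and Adamts20 (-1.56 ± 0.46), and among ADAMTS-like genes for Adamtsl1 (-0.96 ± 0.29), Adamtsl2 (-2.61 ± 0.27) and Adamtsl3 (-1.56 ± 0.42). The call of Adamts19 was lost without wild-type sham 3 (0.063), T497A sham 3 (0.078), wild-type TAC 1 (0.075), T497A TAC 1 (0.053) or T497A TAC 2 (0.067), that of Adamts20 without wild-type TAC 3 (0.056) and that of Adamtsl1 without wild-type sham 3 (0.057) or T497A sham 3 (0.052). With no filter beyond a nonzero total, Adamtsl3 was not called (0.053).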

How the results depend on the processing

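The number of called members stayed within 1.5 times its main value under every alternative run for TAC in wild type, TAC in T497A, the genotypes after TAC and the interaction. After sham it was 7, against 11 with only the groups compared and 12 with DESeq2. With only the groups compared, 1280 of 16403 genes were called after sham, and with DESeq2 no count over all genes was taken. Leaving out 1 library gave 27 to 33 called members for TAC in wild type, 14 to 22 for TAC in T497A, 5 to 11 for the genotypes after sham, 21 to 29 for the genotypes after TAC and 19 to 26 for the interaction. In the same order, 7922 to 8994, 2840 to 5152, 505 to 1607, 5266 to 6491 and 4394 to 5283 of all genes tested were then called. With the replicate number as a block, 31, 18, 8, 27 and 22 members were called in the same order. Of all 17699 genes, 8579, 4021, 862, 5994 and 4921 were called with the block. Same-numbered libraries correlated by -0.113 to 0.0742 in their deviations from the group means, so the numbers were not taken to pair the samples. Without TMM factors, 33 members were higher and 1 lower for TAC in wild type, and 1 and 25 for the interaction. Of all 17699 genes, 10357 and 6869 were then called in either direction. Over all 42 tested members, the call changed in 52 of 874, 41 of 873, 33 of 831, 72 of 874 and 61 of 791 values under an alternative, in the order above. For the 61 results in which the naming rule chose a member in a comparison, 1191 values kept direction and side of the threshold, 33 lost the call, 9 gained one and 7 changed sign. In T497A with TAC, Timp2 was 0.30 against wild-type sham, and Mmp9 was 0.45 against wild-type sham and from -0.51 to 0.01 with 1 library left out (0.01 without T497A sham 3). After sham, Timp1 ran from -0.04 to 0.44 with 1 library left out (-0.04 without T497A sham 3), Timp4 from -0.21 to 0.05 (0.01 without wild-type sham 1, 0.05 without T497A sham 1) and Mmp2 from -0.21 to 0.02 (0.02 without T497A sham 1). Where no value names it, the cause of a change was not tested. Depth limits the members under 1 CPM, such as Mmp8 and Mmp27.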
